A study of Bos taurus with 13 samples.

Results

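The miR-17-92 cluster and its paralogs were represented by 10 mature miRNAs of the 311 that were listed for at least 1 group of bovine follicular fluid pools. The members were chosen by name, without a rule on their values, but with earlier results of these data known. The 7 names given first were bta-miR-18a, bta-miR-19a, bta-miR-20a and bta-miR-92a of the miR-17-92 cluster, bta-miR-25 and bta-miR-106b of the miR-106b-25 cluster and bta-miR-92b. The 3 added because they were listed were bta-miR-17-5p, bta-miR-19b and bta-miR-93. All 10 members were listed for every group, among the 262 miRNAs for which that was the case.

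The miRNAs were measured by small RNA sequencing of extracellular vesicles (EVs), small membrane-enclosed packages shed by cells, isolated by ultracentrifugation from the fluid of large follicles of Holstein Friesian cattle. The study asked how the metabolic status of dairy cows early after calving is reflected in this cargo. Transient cows (TCs), whose energy balance was negative early and positive later, were sampled as 3 pools from 11 animals at weeks 5 and 6 post-calving and as 3 pools from 7 animals at weeks 9 and 10. Always negative cows (ANCs) and always positive cows (APCs), whose energy balance did not change sign, were sampled at weeks 5 and 6 only, each as 2 pools from 2 animals. Heifers, which had never calved and served as the non-lactating controls with a positive energy status, were sampled as 3 pools from 8 animals. In comparisons of ANCs and of TCs at weeks 5 and 6 with heifers, negative energy balance cannot be told apart from calving and lactation. APCs and TCs at weeks 9 and 10 had a positive energy status, as had heifers, but whether its size was alike was not tested. The contrast of all cows with heifers holds cows of both signs. All animals were handled by ultrasound-guided follicle aspiration, and no agent, transgene or deletion was used in any group. Pools serve as replicates throughout, and which animals went into which pool of a group was not given in the sources used here. TCs of both times came from the same set of transient cows, so the same animals may be in pools of both. No fit paired pools by animal. With 1 library per pool, p-values measure the spread between pools, which may in part be technical.

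A miRNA represses target messenger RNAs that carry a match to its seed, the short stretch near its 5′ end, so miRNAs that share a seed share much of their target set. The miR-17-92 transcript carries miRNAs of 4 seed families: miR-17-5p and miR-20a (miR-17 family), miR-18a (miR-18 family), miR-19a and miR-19b (miR-19 family) and miR-92a (miR-25/92 family). The paralogous miR-106b-25 cluster adds miR-106b and miR-93 to the miR-17 family and miR-25 to the miR-25/92 family, to which miR-92b also belongs. The cluster is induced by MYC and is known for promoting cell cycle progression and survival, with the cell cycle inhibitor CDKN1A among the targets of the miR-17 family and the pro-apoptotic BCL2L11 among those of miR-25 and miR-92a. In the ovary it has been studied in proliferating granulosa cells, the cells that line the follicle and bathe in its fluid.

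In the RefSeq annotation of the ARS-UCD2.0 assembly, which is not the build used by the authors, the 6 hairpins of the cluster lie next to each other in the order MIR17, MIR18A, MIR19A, MIR20A, MIR19B and MIR92A-1. MIR106B, MIR93 and MIR25 lie next to each other within the span of MCM7, a gene of the DNA replication machinery, and MIR92B lies apart from both clusters. A further set of 6 hairpins on another chromosome, the miR-106a-363 cluster, holds MIR19B-2 and MIR92A-2, so reads of miR-19b and of miR-92a can come from either of 2 loci that the mature miRNA does not tell apart. Members of the same seed family also differ by few bases, and the authors' mapping allowed a mismatch, so reads may have been split between such members and their levels relative to each other are uncertain. Reads of the other miRNAs of the miR-106a-363 cluster were few. bta-miR-17-3p, from the other arm of MIR17, was not listed. Of the miR-106a-363 cluster, bta-miR-106a and bta-miR-18b were not listed, bta-miR-20b was listed for TCs at weeks 5 and 6 (13 reads over 3 pools) and heifers (22 reads), and bta-miR-363 was listed for heifers (18 reads). bta-miR-20b did not pass the filter on low counts, and bta-miR-363, listed for 1 group only, entered no comparison. The paper lists both as lower in ANCs than in heifers, without counts in ANCs. Neither was tested in ANCs here, because neither was listed for that group.

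The deposited values are counts per 1000000 reads (CPM) scaled by the trimmed mean of M-values (TMM). Whole reads could be recovered from them, and the 13 libraries held 145030 to 421435 miRNA reads with a median of 327359, so that 3 reads, taken as the smallest visible amount, stood at 7.9 to 18.95 CPM. All levels below are CPM on 1 TMM scale over the 13 libraries, on which the scaling factor ran from 0.711 (APC pool 2) to 1.205 (TC weeks 9 and 10 pool 3). A read covers a whole mature miRNA, so levels were not divided by length, but miRNAs differ in how readily they enter a library, which limits comparisons of level between members. The miRNAs taken here as markers of the granulosa and gonad were miR-202, miR-424-5p, miR-542-5p, miR-21-5p and miR-132 (5 of 5 listed). Their cells of origin were not tested. They summed to 55010 to 195470 CPM over the pools, with 59841 to 69027 CPM in ANCs and 95854 to 139478 CPM in heifers. Most of this sum was miR-21-5p, with 54674 CPM in ANCs and 115871 CPM in heifers on average, and 3 of the other 4 markers had higher means in ANCs: miR-202 with 7515 against 4818 CPM, miR-424-5p with 1814 against 619 CPM and miR-542-5p with 348 against 143 CPM. Markers of other cells also differed among the groups, although fluid with visible blood had been discarded by the authors. The summed level of 2 erythroid markers (miR-451 and miR-486) was 131 to 1145 CPM in ANCs, 1717 to 3958 CPM in heifers and 751 to 10962 CPM in the other pools. The summed level of 6 leukocyte markers was 745 to 1580 CPM in ANCs and 4868 to 6077 CPM in heifers, without overlap, and 1573 to 4820 CPM in the other pools. miR-144, the third erythroid marker, was listed for heifers only, and miR-451 had 0 reads in ANC pool 1. The summed level of 7 epithelial markers was 5150 to 8503 CPM in ANCs, 16385 to 26019 CPM in heifers and 5713 to 32526 CPM in the other pools.

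The members spanned 3 orders of magnitude. miR-92a stood highest with a median of 39575 CPM over the 13 pools, which was place 6 among the 262 miRNAs, followed by miR-25 with 27077 CPM (place 9) and miR-93 with 16318 CPM (place 15). miR-92b followed with a median of 3434 CPM, miR-20a with 1835 CPM, miR-19b with 404 CPM and miR-17-5p with 302 CPM. The lowest members were miR-19a with 100 CPM, miR-106b with 37.4 CPM and miR-18a with 34.1 CPM. Several neighbours in this order did not differ beyond their spread. miR-92a exceeded miR-25 in 9 of 13 pools, miR-92b exceeded miR-20a in 10 of 13 and miR-106b exceeded miR-18a in 7 of 13. The order held in all 13 pools for miR-25 over miR-93, miR-20a over miR-19b, miR-17-5p over miR-19a and miR-19a over miR-106b, and in 12 of 13 for miR-93 over miR-92b and for miR-19b over miR-17-5p. Members with few reads carry the largest counting error: miR-18a was counted with 1 to 32 reads per library, miR-106b with 5 to 28 and miR-19a with 15 to 63, whereas miR-92a was counted with 4909 to 18002.

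**Figure D1:**
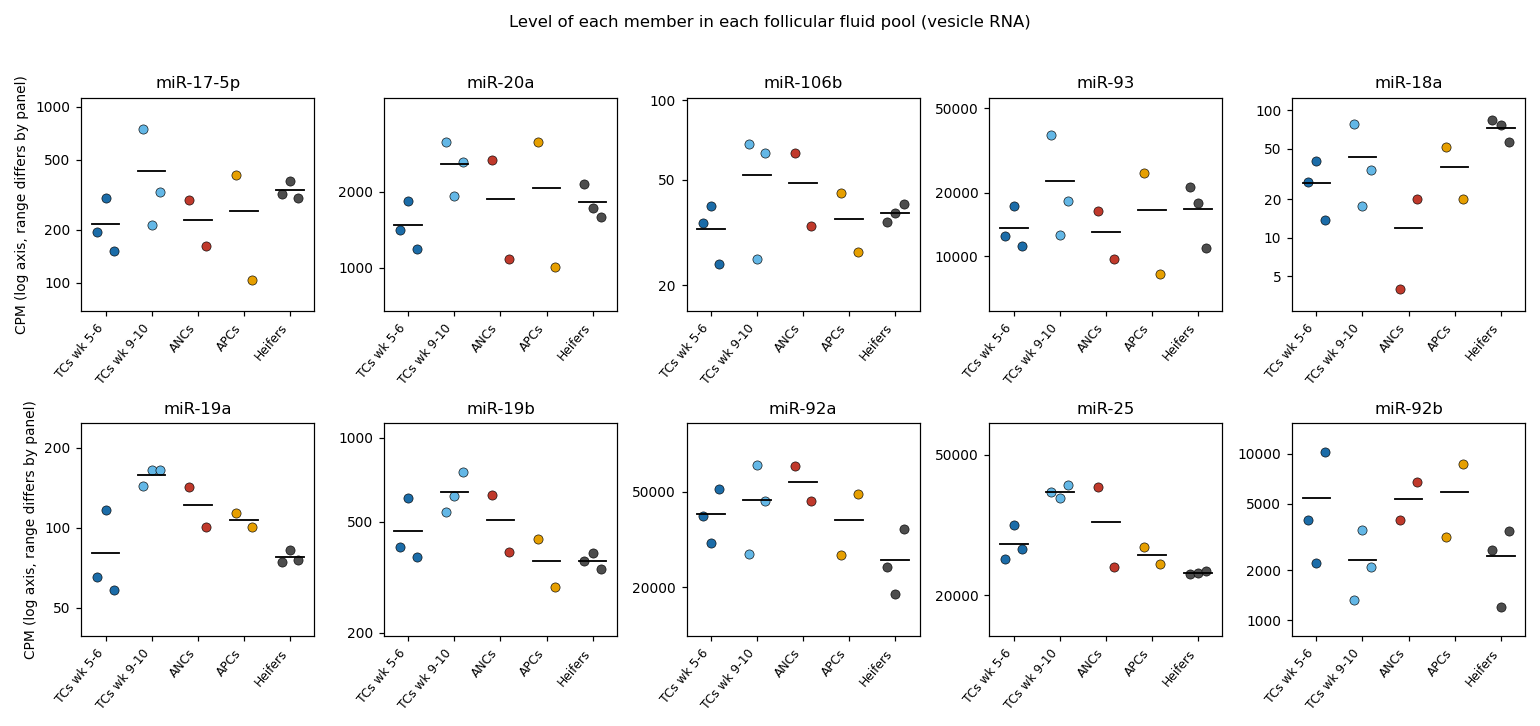
Level of each member (CPM on a log axis whose range differs between panels) in each pool of the 5 groups, with 1 point per pool and a bar at the group mean. Heifers stood above 9 of the 10 cow pools for miR-18a, and the 3 pools of TCs at weeks 9 and 10 stood above those of TCs at weeks 5 and 6 for miR-19a, miR-20a and miR-25.

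The 10 members together took 6.52 to 14.63% of the miRNA reads of a pool. This share was 8.29% ± 0.14 (SD, n = 3) in TCs at weeks 5 and 6, 12.66% ± 0.75 (n = 3) in TCs at weeks 9 and 10, 11.86% ± 3.92 (n = 2) in ANCs, 7.11% ± 0.84 (n = 2) in APCs and 7.65% ± 0.82 (n = 3) in heifers. All 3 pools of TCs at weeks 9 and 10 (lowest 11.9%) were above all pools of TCs at weeks 5 and 6, APCs and heifers (highest 8.4%), while the 2 ANC pools lay far apart, at 14.63% and 9.08%. miR-92a, miR-25 and miR-93 made up most of it. miR-92a took 24.98 to 53.3% of the reads of the family, miR-25 took 26.7 to 37.4% and miR-93 took 9.0 to 33.9%, so miR-25 was the steadiest of the 3. The shares are of reads without scaling between libraries, so the order of groups can differ on the TMM scale. The scaling factor was 1.149, 0.982 and 1.205 in TCs at weeks 9 and 10 and 0.891 and 0.711 in APCs. On the TMM scale APCs had higher means than heifers for miR-92a (37989 against 26041 CPM) and miR-25 (25949 against 23145 CPM). For miR-93 the means were 16467 and 16722 CPM.

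**Figure D2:**
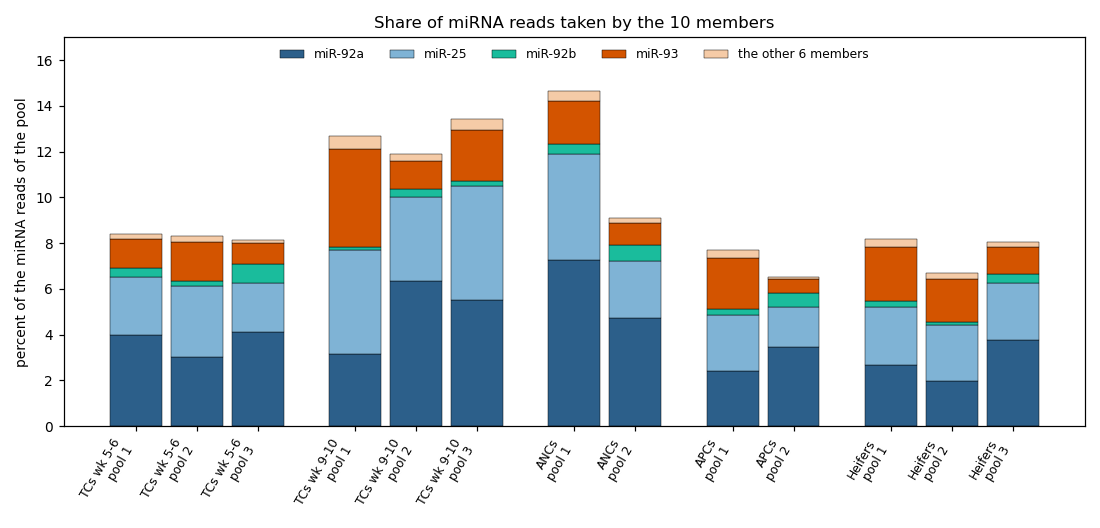
Percent of the miRNA reads of each pool taken by miR-92a, miR-25, miR-92b, miR-93 and the other 6 members together, stacked, with 1 bar per pool. The bars of TCs at weeks 9 and 10 ended between 11.9 and 13.41%, those of TCs at weeks 5 and 6 between 8.14 and 8.4%, and ANC pool 1 ended highest, at 14.63%.

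Pools of the same group differed widely in the make-up of the family. In TCs at weeks 9 and 10, miR-92a took 24.98% of the reads of the family in pool 1 and 53.3% in pool 2, and miR-93 took 33.9% and 10.4% in the same pools. The APC pools showed the same division, with 31.4% of the reads for miR-92a and 28.5% for miR-93 in pool 1 and 53.2% and 9.0% in pool 2. Over the 13 pools the standard deviation on the log2(CPM + 5) scale was 0.98 for miR-18a and 0.94 for miR-92b, above that of 87.0% and 84.4% of the 262 miRNAs, and 0.33 for miR-25, above that of 6.1%. The standard deviation of the other 7 members was between 0.41 and 0.72, around the median of 0.61 over all miRNAs.

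Among the miR-17 family, which shares 1 seed between both clusters, no member separated the cow groups from heifers as a whole. miR-93 stood at 12467, 17224 and 11235 CPM in TCs at weeks 5 and 6, at 37432, 12612 and 18227 CPM at weeks 9 and 10, at 16318 and 9721 CPM in ANCs, at 24662 and 8273 CPM in APCs and at 21329, 17870 and 10967 CPM in heifers. The 5 groups overlapped, and the highest level (weeks 9 and 10 pool 1) and the level that was sixth from the bottom (pool 2) came from the same group. miR-17-5p stood at 195, 302 and 151 CPM in TCs at weeks 5 and 6, at 751, 212 and 328 CPM at weeks 9 and 10, at 293 and 161 CPM in ANCs, at 408 and 104 CPM in APCs and at 321, 377 and 305 CPM in heifers. Heifers lay in a narrow range, above both ANC pools and, by as little as 305 against 302 CPM, all 3 pools of TCs at weeks 5 and 6. miR-20a ranged from 1009 CPM in APC pool 2 to 3144 CPM in pool 1 of TCs at weeks 9 and 10, with 1590 to 2135 CPM in heifers, and miR-106b from 24.0 to 68.1 CPM, with 34.6 to 40.4 CPM in heifers. Both had cow pools above and below all heifers, 4 and 4 of 10 for miR-20a and 4 and 5 of 10 for miR-106b.

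miR-18a, the only member of its seed family that was listed, was the member most often called in comparisons with heifers. It stood at 84.0, 77.4 and 56.6 CPM in heifers (17, 31 and 21 reads), and at 27.4, 39.8 and 13.7 CPM in TCs at weeks 5 and 6 (8, 14 and 4 reads). In TCs at weeks 9 and 10 it stood at 77.8, 17.9 and 34.1 CPM, in ANCs at 3.96 and 20.1 CPM (1 and 3 reads) and in APCs at 51.5 and 20.0 CPM. It was below all heifers in 9 of 10 cow pools, with pool 1 of TCs at weeks 9 and 10 within their range. Of the leukocyte markers, miR-223 and miR-155 were below all heifers in 10 cow pools and miR-150 and miR-146a in 8. miR-142-5p was so in 6 and miR-142-3p in 2. How many of all miRNAs lay this low was not counted. The pooled reads of miR-18a gave a level in heifers 7.12 times that in ANCs, from 4 reads in ANCs and 69 in heifers. Its exact 95% interval, for counting error only, was 2.66 to 26.9. The same ratio was smaller for the other cow groups. It was 2.55 (1.6 to 4.17) for TCs at weeks 5 and 6, 1.52 (1.04 to 2.23) at weeks 9 and 10 and 1.99 (1.21 to 3.42) for APCs.

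The miR-19 family varied little among heifers and had its highest group means in TCs at weeks 9 and 10 (158 CPM ± 12.5 for miR-19a and 637 CPM ± 108 for miR-19b, SD, n = 3). miR-19a stood at 143, 165 and 165 CPM in TCs at weeks 9 and 10, at 65.1, 117 and 58.4 CPM at weeks 5 and 6, at 143 and 100 CPM in ANCs, at 113 and 100 CPM in APCs and at 74.1, 82.4 and 75.5 CPM in heifers. All pools of TCs at weeks 9 and 10, ANCs and APCs were above all heifers, whereas those of TCs at weeks 5 and 6 lay on both sides. miR-19b stood at 540, 617 and 753 CPM in TCs at weeks 9 and 10, at 404, 609 and 374 CPM at weeks 5 and 6, at 622 and 388 CPM in ANCs, at 432 and 291 CPM in APCs and at 361, 384 and 337 CPM in heifers. For miR-19b, TCs at weeks 9 and 10 and, by as little as 388 against 384 CPM, ANCs lay above heifers, and the other 2 groups overlapped with them.

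The miR-25/92 family held the most abundant members. miR-92a stood at 24260, 18709 and 35153 CPM in heifers, at 64009 and 45929 CPM in ANCs, at 27156 and 48822 CPM in APCs, at 39575, 30469 and 51129 CPM in TCs at weeks 5 and 6 and at 27566, 64555 and 45947 CPM at weeks 9 and 10. Both ANC pools were above all heifers, and the other 3 cow groups overlapped with heifers. miR-25 stood at 22896, 23076 and 23463 CPM in heifers, at 40631 and 24056 CPM in ANCs, at 27434 and 24464 CPM in APCs, at 25367, 31527 and 27077 CPM in TCs at weeks 5 and 6 and at 39331, 37603 and 41059 CPM at weeks 9 and 10. On this scale all 10 cow pools were above all heifers for miR-25, but by as little as 24056 against 23463 CPM, and on plain total counts only 6 of 10 were, with 2 below. miR-92b stood at 2649, 1198 and 3434 CPM in heifers, at 3974 and 6715 CPM in ANCs, at 3146 and 8670 CPM in APCs, at 3968, 2196 and 10184 CPM in TCs at weeks 5 and 6 and at 1313, 3493 and 2092 CPM at weeks 9 and 10. Its highest 2 levels came from the pools with the lowest scaling factors, 0.711 and 0.803, and on total counts these pools stood at 6161 and 8173 CPM, with ANC pool 2 (6916 CPM) between them.

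The comparison of ANCs with heifers, which sets cows of lasting negative energy balance against non-lactating animals, gave the most calls among the members. A miRNA counted as called when limma, on the log2(CPM + 5) scale of the libraries compared, gave a difference of 1 or more in either direction with p below 0.05 and adjusted p up to 0.25. Of the 9 members tested, 3 were called, against 18.6% of all miRNAs tested; 2 were higher and 1 lower in ANCs, against 6.51% and 12.1%. miR-18a was lower in ANCs by a log2 fold change of -2.31 ± 0.61 (SE, adjusted p = 0.0971), and miR-92a, encoded in the same cluster, was higher by 1.2 ± 0.37 (adjusted p = 0.128). miR-92b was higher by 1.31 ± 0.53 (adjusted p = 0.207). The paper, from the same libraries, also lists these 3 members as different between ANCs and heifers, in the same directions. miR-106b did not pass the filter on low counts. The 3 members called were also the 3 with an unadjusted p-value under 0.05, against 21.9% of all miRNAs. On the scale of the libraries compared, the pools did not overlap for 7 of the 9 members, against 47.4% of all miRNAs, with 5 higher and 2 lower in ANCs, against 22.3% and 25.1%. The median log2 fold change was 0.52 over the members and 0 over all miRNAs tested. Fewer vesicles from a cell type and fewer copies per vesicle cannot be told apart in such pools.

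These calls rested on few pools. Without ANC pool 1 no member was called, with log2 fold changes of -1.48 for miR-18a (adjusted p = 0.262), 1.04 for miR-92a (adjusted p = 0.291) and 1.77 for miR-92b (adjusted p = 0.262). Without heifer pool 1 none was called either, with log2 fold changes of -2.21 for miR-18a (adjusted p = 0.351), 1.14 for miR-92a (adjusted p = 0.389) and 1.41 for miR-92b (adjusted p = 0.42), and without heifer pool 2 only miR-18a remained called (adjusted p = 0.154), with 0.95 for miR-92a (adjusted p = 0.365) and 0.83 for miR-92b (adjusted p = 0.49). Without ANC pool 2 miR-92b was not called (log2 fold change 0.89, adjusted p = 0.4), nor in 1 fit over all 13 libraries (1.22, adjusted p = 0.303). A pool left alone in its group was assumed to vary like the others. In the same comparison all of the 5 leukocyte markers tested and both erythroid markers tested were called lower in ANCs, as were 4 of 7 epithelial markers, while 2 of 5 granulosa or gonad markers (miR-424-5p and miR-542-5p) were called higher and 1 (miR-132) lower. The part of these cell types in the members' differences was not tested.

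In the comparison of APCs with heifers, which sets cows of lasting positive energy balance against non-lactating animals, no member was called. Of the 10 members tested, 0 were called in limma, against 12.4% of all miRNAs, and 0 had an unadjusted p-value under 0.05, against 16.3%. On the recovered reads, 0 were called with the quasi-likelihood test of edgeR and 0 with DESeq2. The paper, which also used edgeR, lists miR-92b as higher in APCs than in heifers. The log2 fold changes ran from -0.88 to 1.39, with 7 members higher and 3 lower in APCs, and the pools did not overlap for 3 members, against 36.1% of all miRNAs. These were miR-19a, miR-25 and miR-92b, all higher in APCs, against 19.3% of all miRNAs in that direction, but on the scale over all 13 libraries the pools overlapped for miR-92b and were without overlap for miR-18a, lower in APCs. Of the marker lists, 2 of 7 epithelial markers were called lower in APCs and no erythroid, leukocyte or granulosa marker was called. The result depended on the pool left out. Without APC pool 1, which left 1 APC pool, miR-17-5p (-1.53, adjusted p = 0.126), miR-18a (-1.52, adjusted p = 0.167) and miR-92b (2.08, adjusted p = 0.174) were called, and without heifer pool 3 miR-92b was called (1.73, adjusted p = 0.201).

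The comparison of TCs at weeks 5 and 6 with heifers sets cows of transient negative energy balance against non-lactating animals. Of the 10 members, 1 was called, against 6.96% of all miRNAs called and 5.22% called lower. It was also the 1 member with an unadjusted p-value under 0.05, against 17.4% of all miRNAs. miR-18a was lower in these TCs by a log2 fold change of -1.36 ± 0.42 (SE, adjusted p = 0.222), and all 3 of its TC pools were below all heifer pools. On the scale of the libraries compared, pools without overlap were found for 2 members, miR-18a and miR-25, against 22.2% of all miRNAs, whereas miR-17-5p was also without overlap on the scale over all 13 libraries. Same-numbered pools of this comparison correlated in these data (r from 0.216 to 0.385), but the sources used here do not state that they were linked. With the replicate number as a block in limma, miR-18a (-1.36, adjusted p = 0.068) and miR-92b (1, adjusted p = 0.068) were both called. Because the block was chosen from the same data, these 2 calls are no independent support. When the fit took account of the day on which the RNA was measured, miR-18a was not called (-1.36, adjusted p = 0.358), and neither was it in 1 fit over all 13 libraries (-1.35, adjusted p = 0.29). It was also not called without TC pool 1 (adjusted p = 0.531), TC pool 3 (-0.97, adjusted p = 0.376), heifer pool 1 (adjusted p = 0.57) or heifer pool 2 (adjusted p = 0.504), and without TC pool 2 it was called together with miR-92b (1.65, adjusted p = 0.17). In this comparison 3 of 5 leukocyte markers and 2 of 7 epithelial markers were called lower in TCs, with no erythroid or granulosa marker called, and their part was not tested. The log2 fold changes of the other 9 members ran from -0.67 to 1, with a median of -0.11 over the 10 members and -0.03 over all miRNAs.

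In the comparison of TCs at weeks 9 and 10 with heifers, taken after the energy balance had turned positive, 0 of the 10 members were called, as were 0% of all miRNAs, while 3 members and 10.6% of all miRNAs had an unadjusted p-value under 0.05. These 3 were higher in TCs without overlap of the pools, against 9.69% of all miRNAs without overlap in that direction and 15.4% in either. The log2 fold change was 1.03 ± 0.3 (SE) for miR-19a (adjusted p = 0.336), 0.85 ± 0.28 for miR-19b (adjusted p = 0.357) and 0.81 ± 0.23 for miR-25 (adjusted p = 0.336). The quasi-likelihood test of edgeR called 0 members and DESeq2 called 1, miR-19a (1.05, adjusted p = 0.199), which was also called in limma without pool 2 of these TCs (1.03, adjusted p = 0.177). miR-18a was not called here, and its pools overlapped with those of heifers. No marker of the 4 lists was called either, but all 5 leukocyte markers tested had log2 fold changes below 0 (median -1.44), 3 of them with an unadjusted p-value under 0.05, as had all 7 epithelial markers (median -1.02), 2 of them with an unadjusted p-value under 0.05. Their part in the members' differences was not tested.

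**Figure D3:**
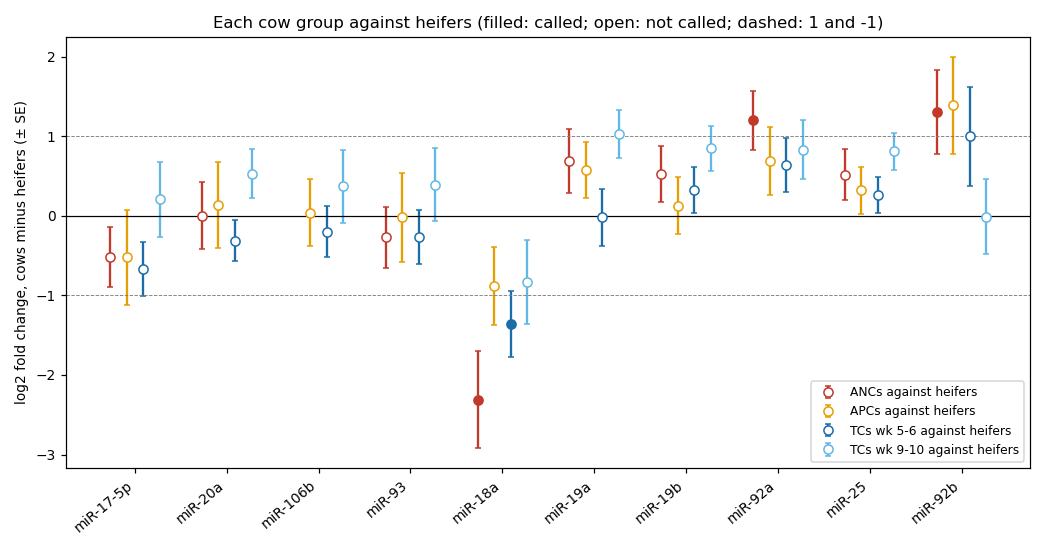
Log2 fold change on the log2(CPM + 5) scale (± SE of limma) of each member in ANCs, APCs, TCs at weeks 5 and 6 and TCs at weeks 9 and 10 against heifers, with filled points for called members. The 4 comparisons share the same 3 heifer pools; miR-18a lay below 0 in all 4, with called values of -2.31 and -1.36, and miR-106b was not tested in ANCs.

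Between the 2 times of TCs, 0 of the 10 members and 0% of all miRNAs were called in limma, and 0 members were called with edgeR and DESeq2. The pools of the 2 times may share animals, which no fit took into account. An unadjusted p-value under 0.05 was found for 2 members and 5.36% of all miRNAs. miR-19a was higher at weeks 9 and 10 by a log2 fold change of 1.01 ± 0.44 (SE, adjusted p = 0.573) and miR-20a by 0.8 ± 0.34 (adjusted p = 0.573). On the scale of the libraries compared, the pools of the 2 times did not overlap for miR-19a and miR-25, both higher at weeks 9 and 10, against 13.4% of all miRNAs without overlap and 6.7% in that direction, and 9 of the 10 members had a log2 fold change above 0, with a median of 0.52 against -0.05 over all miRNAs. The exception was miR-92b with -1.05, the lowest value. miR-20a was without overlap on the scale over all 13 libraries only, by 1929 against 1835 CPM. For miR-18a the difference between the times had a 95% interval of -0.9 to 1.9 on the log2 scale. Without pool 2 of the TCs at weeks 5 and 6, miR-19a (1.32, adjusted p = 0.24) and miR-92b (-1.54, adjusted p = 0.24) were called.

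The comparison of ANCs with APCs, the contrast of energy status at a shared time, called 0 of 9 members and 0% of all miRNAs in limma, and 0 members with edgeR and DESeq2. miR-18a, at 4 reads in ANCs and 21 in APCs, was not tested. None of the members had an unadjusted p-value under 0.05, against 8.21% of all miRNAs, and the log2 fold changes ran from -0.14 to 0.61 with a median of 0.20. For miR-92a, called higher in ANCs against heifers, the 95% interval of the log2 difference of ANCs from APCs ran from -0.55 to 1.77, and for miR-92b from -1.55 to 1.59, so these pools do not show that the groups were alike. The pools overlapped for all 9 members, against 43.5% of all miRNAs without overlap. ANCs against TCs at weeks 5 and 6 gave 0 of 9 members and 0% of all miRNAs called, with log2 fold changes of -0.11 to 0.6 and no member without overlap, against 27.1% of all miRNAs. miR-18a was not tested there. APCs against TCs at weeks 5 and 6 gave 0 of 10 and 0%, with -0.29 to 0.5 and no member without overlap, against 15.1%. No member had an unadjusted p-value under 0.05 in either, against 8% and 2.67% of all miRNAs, and edgeR and DESeq2 called 0 members. No marker of the 4 lists was called in any comparison between cow groups, but several differed at an unadjusted p-value under 0.05. Both erythroid markers tested (miR-451 with a log2 fold change of -4.52 and miR-486 with -3.34) and 2 of 5 leukocyte markers (miR-150 with -1.93 and miR-223 with -1.59) were lower in ANCs than in APCs at that level, and miR-542-5p was higher (1.54). Against TCs at weeks 5 and 6, ANCs had lower miR-451 (-2.34), miR-142-5p (-1.82), miR-150 (-1.76) and miR-132 (-2.23) and higher miR-202 (0.9) at that level, and miR-451 was higher in APCs (2.27) and in TCs at weeks 9 and 10 (2.02). The adjusted p-values of these markers in limma were 0.399 to 0.993, and their part in the members' values was not tested.

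Over all 10 postpartum pools against the 3 heifer pools, with the 4 cow groups weighted equally, 1 of the 10 members was called, against 8.1% of all miRNAs called and 6.07% called lower. An unadjusted p-value under 0.05 was found for 2 members and 18.2% of all miRNAs. miR-18a was lower in cows by a log2 fold change of -1.4 ± 0.47 (SE, adjusted p = 0.139), with 3.96, 23.8 and 77.8 CPM as the lowest, median and highest of the cow pools against 56.6 to 84.0 CPM in heifers. The call was kept when any 1 of the 10 cow pools was left out and with total counts, edgeR and DESeq2, but not without heifer pool 1 (-1.26, adjusted p = 0.495) or heifer pool 2 (-1.32, adjusted p = 0.561). miR-92a was higher in cows by 0.77 ± 0.32 (adjusted p = 0.206), under the fold change required, with 27156, 45938 and 64555 CPM as the lowest, median and highest of the cow pools. It was called without heifer pool 3 (1, adjusted p = 0.13). miR-25 was the 1 member whose pools did not overlap, higher in cows, against 4.45% of all miRNAs without overlap and 1.21% in that direction, and it was not called. Here 5 of the 6 leukocyte markers and 2 of 7 epithelial markers were called lower in cows, with no erythroid or granulosa marker called, and their part was not tested.

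Across the 13 pools the members of the miR-17 seed family varied together although they are encoded in different clusters. Of the 45 pairs of members, 15 had a Pearson correlation with an adjusted p-value under 0.05 (permutation, adjusted over the 45 pairs), 10 of them positive and 5 negative. The pools share groups, depth and scaling, so they are not independent of the design, and the values with group means removed are given beside the plain ones. All 6 pairs within the miR-17 family were positive, with r from 0.69 to 0.93, and from 0.73 to 0.94 with group means removed and 0.8 to 0.96 on total counts. The part of reads split between such similar sequences was not tested. The closest pair was miR-17-5p and miR-93, which are encoded in different clusters (r = 0.93, rho = 0.88, adjusted permutation p = 0.0006 and 0.0016). r was 0.83 without the 2 pools farthest from the median of miR-17-5p and 0.78 over the 7 pools whose RNA was measured on the later day (the earlier day held 5 pools, too few for a value). An r at least as high was found in 0.2% of the 24090 pairs among the 220 miRNAs with a mean of at least 10 reads.

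**Figure D4:**
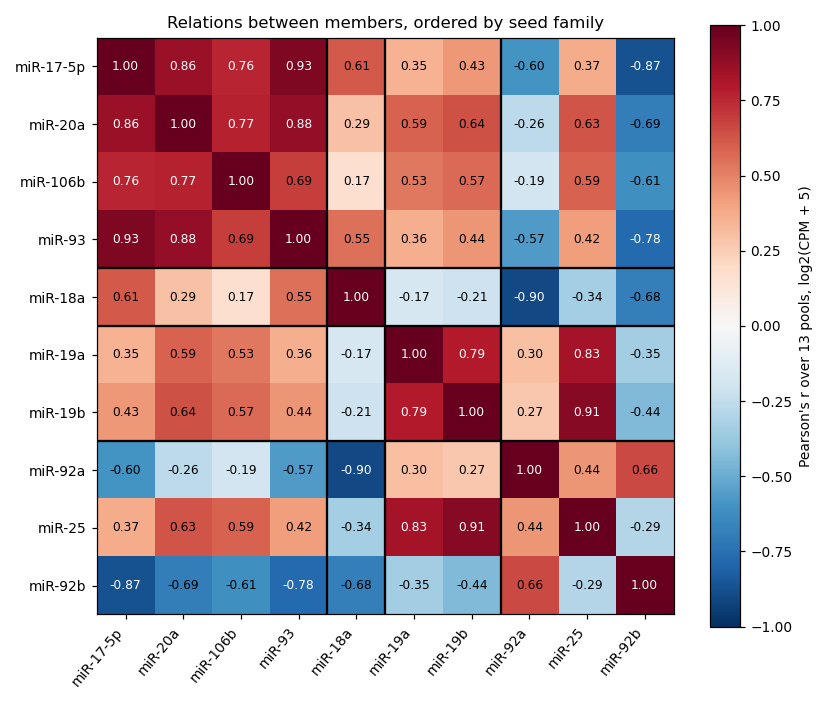
Pearson's r over the 13 pools on the log2(CPM + 5) scale for each pair of members, with black lines between the miR-17, miR-18, miR-19 and miR-25/92 seed families. The block of miR-17-5p, miR-20a, miR-106b and miR-93 held r from 0.69 to 0.93, and miR-92b was negative against all members but miR-92a.

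Levels of members encoded in the same cluster could go in opposite directions. Reads of miR-92a can also come from its second locus, in the miR-106a-363 cluster, and miR-18a was counted with only 1 to 32 reads per library. The values for miR-92a therefore do not show that products of 1 transcript diverged. miR-18a and miR-92a, of the miR-17-92 cluster, had r = -0.90 and rho = -0.92 (adjusted permutation p = 0.0006 and 0.0016), with r = -0.91 with group means removed, -0.89 without the 2 pools farthest from the median of miR-18a, -0.88 over the pools of the later day and -0.72 on total counts. An r this low was found in 0.05% of all pairs. miR-17-5p and miR-92a had r = -0.60 (adjusted permutation p = 0.069), or -0.77 with group means removed and -0.23 on total counts, so this value depended on the scaling. Over the 18 pairs within a cluster the median r was 0.39, with 13 above 0, against 0.37 over the other 27 pairs and -0.01 over all pairs of the 220 miRNAs.

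The miR-19 family went with miR-25 of the other cluster. miR-19a and miR-19b had r = 0.79 (rho = 0.80, adjusted permutation p = 0.009 and 0.011), and 0.87 with group means removed. miR-19b and miR-25 had r = 0.91 (rho = 0.86, adjusted permutation p = 0.0012 and 0.0029), 0.79 with group means removed, 0.85 without the 2 pools farthest from the median of miR-19b and 0.95 over the pools of the later day. miR-25 was less close to the members of its own cluster and of its own seed family, with r = 0.42 to miR-93, 0.59 to miR-106b, 0.44 to miR-92a and -0.29 to miR-92b, none of which passed the adjustment (adjusted permutation p = 0.23, 0.075, 0.21 and 0.4). The difference between these correlations was not tested. miR-92b had r = 0.66 to miR-92a (rho = 0.70, adjusted permutation p = 0.042 and 0.033) and -0.87 to miR-17-5p (rho = -0.89, adjusted permutation p = 0.0012 and 0.0016), and r was 0.81 and -0.83 with group means removed.

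**Figure D5:**
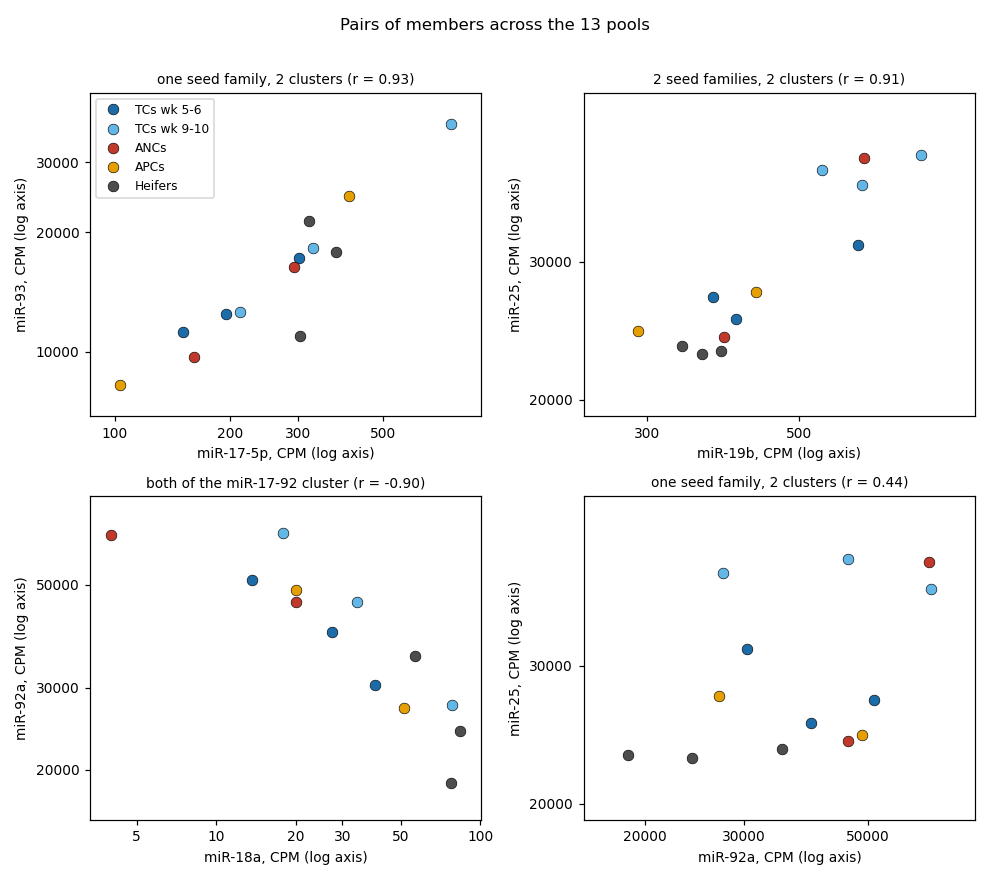
Levels of 4 pairs of members in the 13 pools (CPM, both axes log), coloured by group, 1 point per pool. miR-93 followed miR-17-5p (r = 0.93) and miR-25 followed miR-19b (r = 0.91), miR-92a was lower where miR-18a was higher (r = -0.90), and miR-25 followed miR-92a less closely (r = 0.44).

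Ratios of reads within a pool are changed by no scaling between libraries. The ratio of miR-92a to miR-18a reads ran from 242 in heifer pool 2 to 16157 in ANC pool 1, where a single miR-18a read was counted, and was 242 to 621 in heifers, 765 to 3723 in TCs at weeks 5 and 6, 354 to 3600 at weeks 9 and 10, 2287 to 16157 in ANCs and 528 to 2436 in APCs. ANCs and TCs at weeks 5 and 6 thus lay above all heifers without overlap. For ANCs this adds nothing to the levels, because miR-92a was already above and miR-18a below all heifers. The ANC ratios also rest on 1 and 3 miR-18a reads. How often ratios of other miRNAs separated the groups was not counted. The ratio of miR-92a to miR-17-5p ran from 36.7 to 472, a 12.9-fold range, with miR-17-5p counted with at least 24 reads in every pool. The second locus of miR-92a cannot be told apart in this ratio. The ratio of miR-93 to miR-17-5p, from different clusters, ran from 36.0 to 79.9, a 2.2-fold range, and that of miR-20a to miR-17-5p from 4.18 to 9.74. Within the miR-106b-25 cluster the ratio of miR-25 to miR-93 ran from 1.05 to 2.98.

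Outside the family, the miRNAs whose levels over the 13 pools were most like those of the most abundant member of each seed family were found by Pearson's r on the same scale, as a description without a test. They were miR-532 (r = 0.86), miR-191 (0.84) and miR-339a (0.84) for miR-93, and miR-452 (0.91), miR-423-3p (0.84) and miR-3431 (0.81) for miR-19b. For miR-92a they were miR-125a (0.89), miR-1306 (0.85) and miR-6518 (0.83), and for miR-18a they were miR-154c (0.84), miR-432 (0.82) and miR-186 (0.80). With group means removed, the r of these 12 miRNAs stayed between 0.62 and 0.97.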

How the data were processed

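Small RNA of follicular fluid EVs was measured in 13 pools, grouped by their labels. The authors prepared libraries with the QIAseq miRNA kit (whether its molecular identifiers were used is not given in the sources used here), trimmed adaptors with Cutadapt 1.11 and mapped reads to UMD3.1 with Bowtie2 2.2.2 (versions from the submitters' processing notes), annotated them with miRBase and deposited TMM-normalized CPM. For 7 libraries the deposited column was treated as a signal without fixed total, because the totals after the authors' TMM scaling exceeded 1000000. Whole reads were recovered for 3681 of 3681 values (tolerance 0.02 CPM, checked on simulated libraries).

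Reads of the libraries compared were scaled by TMM (edgeR 4.0.16), filtered with filterByExpr (minimum count 10, minimum total count 15) and tested as log2(CPM + 5) in limma 3.58.1 with a mean-variance trend and Benjamini-Hochberg adjustment over all miRNAs tested. The fits were tested on simulated data. The quasi-likelihood test of edgeR and DESeq2 1.42.0 on the recovered reads were alternatives, as were other pseudocounts, filters, scalings, thresholds, blocks, a covariate and leaving out each pool. Correlations across pools used 100000 permutations.

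All members are named. By the rule for named miRNAs, a fold change is given for members with an unadjusted p-value under 0.05 in the comparison and otherwise as a range; values of members called only under an alternative, and intervals of differences, were added after the values were seen. The members, lists and tests were chosen with earlier results of these data known. RNA was measured on an earlier day in 5 pools and on a later day in 7, with no day for APC pool 2. Replicate numbers come from the labels. In deviations from the group means, same-numbered pools of TCs at weeks 5 and 6 and heifers correlated with r from 0.216 to 0.385 in all 3 pairs, above the 0.1 required, and in no other comparison did 3 pairs do so. miRNA sequences and UMD3.1 coordinates were not used here. Intervals and floors cover counting error only.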

Additional observations from a re-analysis of the deposited data

How the results depend on the processing

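No member with an unadjusted p-value under 0.05 in a comparison changed direction under any of the alternatives run. With the adjusted p-value limited to 0.05, 0 members were called in any comparison. Apart from leaving out a pool, the number of members called changed by over 1.5 times as follows. Against heifers, APCs gave 1 with total counts (miR-18a) and 1 with the replicate block (miR-92b). TCs at weeks 5 and 6 gave 0 in 1 fit over all 13 libraries, 0 with the measurement day of the RNA in the model and 2 with the replicate block. TCs at weeks 9 and 10 gave 1 with DESeq2. The cause of these changes was not tested. With pools left out in turn, 0 to 3 members were called for ANCs and 0 to 3 for APCs against heifers, 0 to 2 for TCs at weeks 5 and 6, 0 to 1 for TCs at weeks 9 and 10 and 0 to 2 for all cows against heifers, and 0 to 2 between the times of TCs. In the other 3 comparisons 0 members were called under every alternative run. A pool left alone in its group was assumed to vary like the others. In comparisons of 2 with 3 pools the third pool drops out of the block. In the other comparisons (r from -0.167 to 0.188, and 0.216 for the ANCs and APCs, which have only 2 pairs), the replicate block changed the call of miR-92b in APCs against heifers and of no other member. It moved the calls over all miRNAs to 65 for ANCs, 41 for APCs, 7 for TCs at weeks 9 and 10 and 29 for all cows against heifers. For ANCs against APCs it moved them to 28. The pools that correlated best with their own number did not divide the comparisons cleanly. Against heifers they were 6 of 6 for TCs at weeks 5 and 6, 0 of 6 for TCs at weeks 9 and 10, 4 of 4 for ANCs and 3 of 4 for APCs. Between the times of TCs they were 2 of 6, and 4 of 4 for ANCs against APCs. Against TCs at weeks 5 and 6 they were 0 of 4 for ANCs and 3 of 4 for APCs. With 2 pools in each group, as for ANCs against APCs, deviations from the group means mirror each other. Only 4 of 4 or 0 of 4 was possible there. The measurement day could not be run for comparisons with APCs, where a day is missing, nor for all cows.

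The number of all miRNAs called depended more on the choices. It was 40 for ANCs against heifers and ranged from 0 to 65, 29 for APCs (0 to 63), 16 for TCs at weeks 5 and 6 (0 to 46), 0 for TCs at weeks 9 and 10 (0 to 25) and 20 for all cows (0 to 35). It was 0 for ANCs against APCs (0 to 36), between the times of TCs (0 to 22), and for ANCs (0 to 7) and APCs (0 to 4) against TCs. The scaling also moved the split of these calls. For ANCs against heifers 14 of 40 were higher, against 8 of 41 with TMM over all 13 libraries and 9 of 38 with DESeq2 size factors; for APCs 22 of 29 were higher, against 14 of 63 with total counts and 21 of 33 with TMM over all 13 libraries; for TCs at weeks 5 and 6 it was 4 of 16, against 6 of 13 with DESeq2 size factors and 22 of 35, a majority in the other direction, with the DESeq2 test. Among the correlations of member pairs, 4 of 45 changed sign with group means removed and 5 with total counts, none of them among the 15 with an adjusted p-value under 0.05. Depth limits miR-18a and miR-106b most, since a few reads decide their level in a pool.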
